A study of Mus musculus with 17 samples.

Results

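This report describes 8 genes of cholesterol handling, chosen by name with earlier results of these data known. These were Hmgcs1 and Sqle (synthesis), Insig1, Srebf1 and Srebf2 (sterol sensing), and Abca1, Abcg1 and Nr1h3 (efflux and its control). They are 8 of 31647 features counted in the hearts of male C57BL/6J wild-type mice aged 8 to 11 weeks. In 9 mice the left anterior descending coronary artery (LAD) was tied permanently and the infarct zone (IZ) was taken 5d after surgery. In 8 sham mice the chest was opened without ligation and left ventricular tissue was taken. Ligation was permanent, so the model has no reperfusion, and bulk tissue mixes all cells of the piece sampled. RNA was read by MACE-seq, which counts cDNA ends near the 3' end of each transcript, with molecular barcodes to remove PCR duplicates.

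Cells make cholesterol from acetyl-CoA through the mevalonate pathway, and take it up as lipoprotein or as the membranes of engulfed cells. When membrane sterol is low, the SREBP transcription factors, encoded by Srebf1 and Srebf2, leave the endoplasmic reticulum with their escort Scap, are cut by the proteases Mbtps1 and Mbtps2, and switch on synthesis and uptake genes. Insig proteins hold the SREBP and Scap complex back when sterol is plentiful. Oxysterols, in turn, activate the LXR receptors, one of which Nr1h3 encodes, and LXR switches on the efflux pumps Abca1 and Abcg1. Macrophages that clear dead cells are well known for this efflux arm.

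The efflux pumps were higher in the IZ, and the sensing genes Insig1, Srebf1 and Srebf2 were not called changed. Of the 8 genes, 3 were called higher at an adjusted p under 0.05 (Abca1, Abcg1 and Sqle), 0 were called lower and 5 were not called, by the quasi-likelihood F-test of edgeR with p-values adjusted by the Benjamini-Hochberg method over 12301 genes. At an unadjusted p under 0.05 Srebf2 joined them, and none was lower. The share called, 37.5%, compares with 69.5% of all genes tested, of which 36.3% were called higher and 33.1% lower. With so few members, nothing is read from the gap between these shares. Their median log2 fold change was 0.27, against 0.05 over all genes tested. All fold changes below are IZ over sham, and levels are CPM, a gene's count relative to the library's total after TMM scaling.

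Each library held between 1237675 and 4738307 counts, so the genes at a few CPM rest on few reads. Cell type markers showed that the IZ pieces differed widely in makeup from sham ventricle. The 11 macrophage markers with a row of their own were all called higher (from Mertk at a log2 fold change of 2.01 to Cd68 at 4.09), and their summed level went from 430 to 617 CPM in sham to 2534 to 6035 CPM in the IZ. All 10 cardiomyocyte markers were lower (from Tnnt2 at -2.20 to Tnni3 at -4.19), and their sum was 82507 to 109635 CPM in sham but 2517 to 32721 CPM in the IZ. Of 8 fibroblast markers 7 were higher, with Col1a1 highest at 16.0-fold, while Dcn (0.036, but as low as -0.051 without single libraries) was not called. Of 7 endothelial markers 2 were lower, Kdr at -1.70 being the lowest, while Emcn (-0.037) changed sign between scalings. None of 6 adipocyte markers passed the low-count filter, and their sum was at most 29.5 CPM in sham but reached 225 CPM in IZ replicate 2, with replicates 3 and 7 also above sham. IZ replicate 1 stood apart, with the highest cardiomyocyte sum, the lowest macrophage sum and 19.5% mitochondrially encoded counts (4.22% to 6.78% in the other IZ libraries). In bulk tissue, fewer cells of a type and less RNA per cell cannot be told apart, and the part that cell makeup has in the results below was not tested.

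Abca1 (ENSMUSG00000015243, chromosome 4, 53030787 to 53159895, minus strand, GRCm38) encodes the pump that loads cholesterol and phospholipid onto lipid-poor apolipoprotein A-I. Its level was lowest at 19.5, median 24.8 and highest at 40.5 CPM in the 8 sham libraries, and lowest at 61.6, median 84.1 and highest at 94.4 CPM in the 9 IZ libraries. The groups did not overlap: every IZ library was above every sham library, a pattern seen in 16.6% of all genes tested. The lowest IZ value belonged to replicate 1 and the highest sham value to replicate 8. The mean rose from 26.3 ± 6.76 (SD, n = 8) to 81.8 ± 10.5 CPM (SD, n = 9), a fold of 3.12 (95% CI 2.57 to 3.78) with edgeR's adjusted p of 3.07e-10. Spread between mice was small relative to this, with a coefficient of variation of 25.7% in sham and 12.8% in the IZ.

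Abcg1 (ENSMUSG00000024030, chromosome 17, 31057675 to 31117988, plus strand) encodes the pump that passes cholesterol on to mature HDL particles. It was low in sham ventricle, where libraries held 4 to 10 of its reads, and the IZ libraries held 41 to 223. It passes the low-count filter through the IZ libraries, where it is high. Without a filter its log2 fold change was 2.98 (edgeR adjusted p = 6e-15). In CPM, sham libraries ran from 2.23 through a median of 3.57 to 6.11, and IZ libraries from 19.2 through a median of 27.0 to 44.1. Again no library of one group reached into the range of the other. The fold was 7.60 (95% CI 5.58 to 10.3; log2 fold change 2.93 ± 0.22 SE; adjusted p = 6.08e-11 by edgeR), between means of 3.77 ± 1.18 and 28.9 ± 7.91 CPM. The log2 fold change was thus higher in Abcg1 than in Abca1, and their 95% intervals on that scale (2.48 to 3.37 and 1.36 to 1.92) did not meet.

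Nr1h3 (ENSMUSG00000002108, chromosome 2, 91184061 to 91202834, minus strand), which encodes LXR alpha, the sterol-sensing receptor upstream of both pumps, was not called changed. Sham libraries ran from 7.47 through a median of 11.3 to 20.6 CPM, and IZ libraries from 8.33 through a median of 10.8 to 16.5 CPM. The IZ range lay wholly inside the sham range. The log2 fold change was -0.18 (95% CI -0.60 to 0.25, edgeR adjusted p = 0.45), so changes within that interval remain compatible with the data. Libraries held 11 to 89 of its counts.

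**Figure D1:**
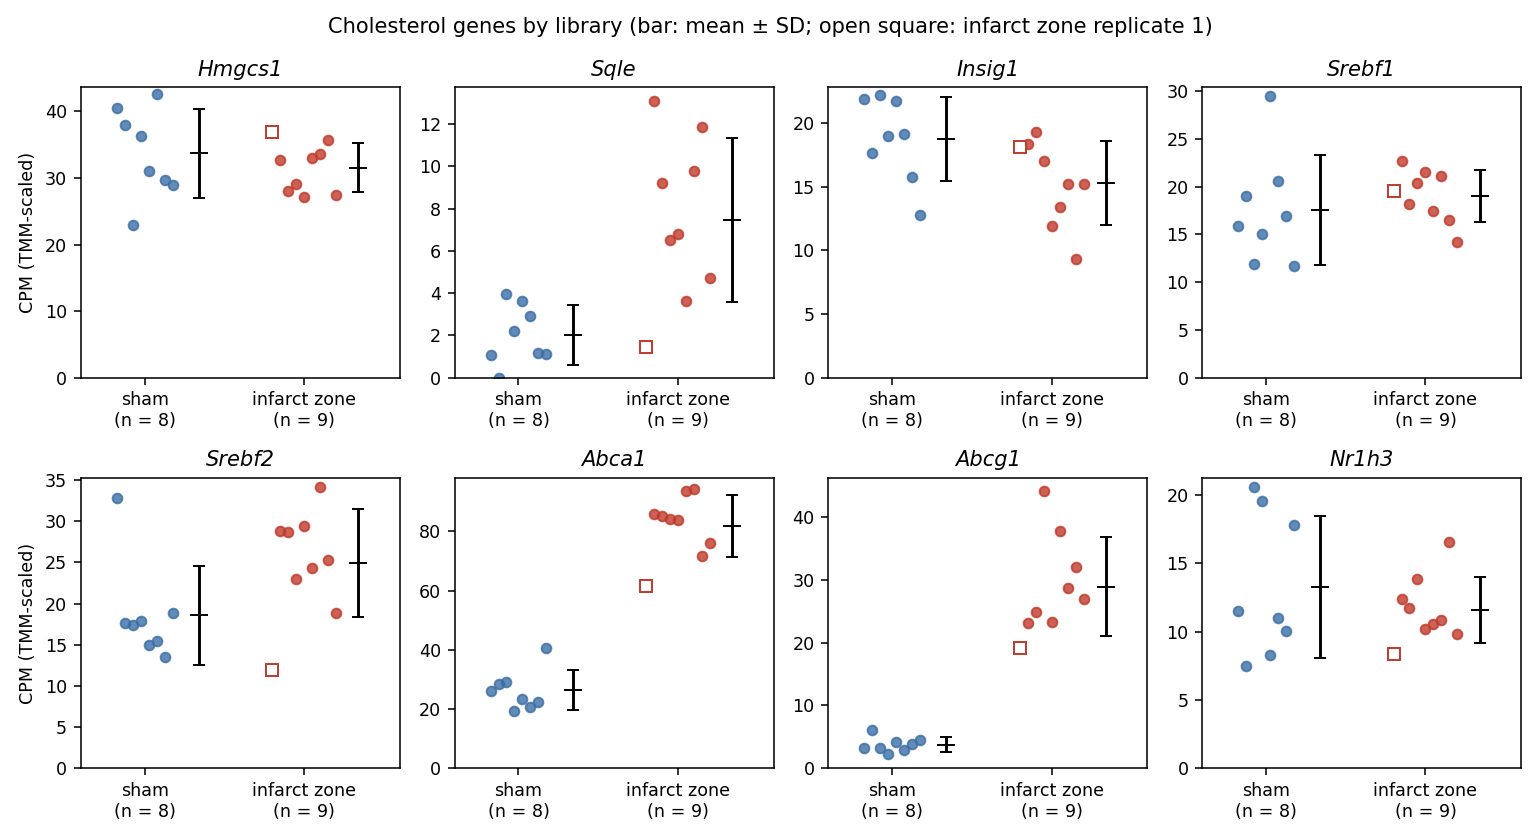
CPM on TMM-scaled library sizes (y axis, linear from 0) of the 8 genes in each sham (blue, n = 8) and IZ (red, n = 9) library, with black bars for mean ± SD and an open square for IZ replicate 1. Abca1 and Abcg1 are separated completely between groups, and Sqle overlaps through 2 IZ libraries. Srebf2 overlaps through replicate 1 of each group, and Hmgcs1, Insig1, Srebf1 and Nr1h3 overlap broadly.

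Promoter sequences are shown for an LXR target that rose (Abca1), a known LXR target that was not called (Srebf1) and a SREBP target that was not called (Hmgcs1). Each runs from 250 bases before to 50 after a RefSeq start on GRCm38.p6, 5′ to 3′ on the gene's strand. RefSeq entries were found for 6 of the 8 genes, in 9 windows, Sqle and Abcg1 being the genes without one. In the first and second, capitals mark a match, on the opposite strand, to NGGTNANNNNNGGTNA, a loosened form of the spaced repeat that LXR and its partner RXR bind. In the last, capitals mark a match to TCACNCCAC, a form of the sterol regulatory element that SREBPs bind.
Abca1, chr4:53159846-53160145, minus strand: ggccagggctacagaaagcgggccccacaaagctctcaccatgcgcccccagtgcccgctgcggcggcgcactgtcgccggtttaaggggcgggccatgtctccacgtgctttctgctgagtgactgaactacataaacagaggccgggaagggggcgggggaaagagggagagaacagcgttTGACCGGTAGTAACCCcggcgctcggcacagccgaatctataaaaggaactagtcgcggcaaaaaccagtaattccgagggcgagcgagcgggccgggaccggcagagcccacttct
Srebf1, chr11:60210422-60210721, minus strand: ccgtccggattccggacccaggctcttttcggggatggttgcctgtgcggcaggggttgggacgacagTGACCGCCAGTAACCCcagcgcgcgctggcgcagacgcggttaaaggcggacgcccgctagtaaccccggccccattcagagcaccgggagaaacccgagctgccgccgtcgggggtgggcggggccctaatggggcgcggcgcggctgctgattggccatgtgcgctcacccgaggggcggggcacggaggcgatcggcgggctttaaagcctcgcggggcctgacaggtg
Hmgcs1, chr13:119690101-119690400, plus strand: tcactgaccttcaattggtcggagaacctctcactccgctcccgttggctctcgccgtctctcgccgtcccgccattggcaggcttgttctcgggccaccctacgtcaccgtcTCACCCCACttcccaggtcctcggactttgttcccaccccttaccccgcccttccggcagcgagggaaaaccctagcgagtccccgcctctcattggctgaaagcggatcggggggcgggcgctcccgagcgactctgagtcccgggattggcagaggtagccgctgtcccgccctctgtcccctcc

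The match began 67 bases before the start in Abca1 and 182 before it in 1 of the 3 Srebf1 windows. The loosened pattern was searched on both strands, and only after the strict repeat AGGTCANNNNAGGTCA had matched no member. It occurs in 0.718% of all 32851 promoter windows and the strict repeat in 0.0152%. Abca1 and Srebf1 carry like letters in these windows, while their log2 fold changes were 1.64 and 0.11. These fold changes are for whole genes. Counts near the 3' end do not separate Srebf1 transcripts by start, so 0.11 does not describe the transcript from the window shown. The sterol element began 137 bases before the Hmgcs1 start and occurs in 1.24% of windows, on either strand. Among the members with an entry, Hmgcs1 was the only one with it. The E-box CACGTG, another sequence SREBPs can bind, lay 101 bases before the Insig1 start and 147 before the Abca1 start, and 7.15% of windows hold it. The CCAAT box (37.4% of windows) and the GC box GGGCGG (35.7%), which host the cofactors of SREBPs, are too common to set any member apart. A match describes letters and not binding.

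Sqle (ENSMUSG00000022351, chromosome 15, 59315077 to 59331192, plus strand) encodes squalene epoxidase, the first oxygen-using step of sterol synthesis and a rate-limiting one. It was the least counted member, at 0 to 7 reads a library in sham and 4 to 94 in the IZ. In CPM, sham libraries ran from 0 through a median of 1.69 to 3.96 and IZ libraries from 1.45 through a median of 6.80 to 13.1. IZ replicates 1 and 6 fell inside the sham range and the other 7 lay above it. Sqle rose 3.83-fold (95% CI 2.06 to 7.13; adjusted p = 3.84e-04 by edgeR), from 2.01 ± 1.40 to 7.45 ± 3.86 CPM. Its interval was the widest of the 8. Leaving out any of IZ replicates 2 to 9 dropped Sqle below the low-count filter, and the members called higher were then 2, or 3 where Srebf2 passed (without IZ replicate 4 or 9). In the 9 other leave-one-out fits its log2 fold change was 1.76 to 2.13, with the call kept. Sqle passes the filter through the IZ libraries alone, so a filtered fit tests it only where enough of them hold it. Without a filter its log2 fold change was 1.99 (edgeR adjusted p = 7.83e-05), and with the DESeq2 Wald test 1.93 (adjusted p = 6.43e-05).

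Hmgcs1 (ENSMUSG00000093930, chromosome 13, 119690379 to 119708260, plus strand) encodes the cytosolic HMG-CoA synthase, an early enzyme of the mevalonate pathway. Its level was 23.0 to 42.6 CPM in sham (median 33.6) and 27.2 to 37.0 CPM in the IZ (median 32.7). All IZ libraries lay inside the sham range. The log2 fold change of -0.10 (95% CI -0.35 to 0.15; edgeR adjusted p = 0.477) was near 0 and turned to 0.010 under upper quartile scaling. This was the narrowest interval of the 8 genes.

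Among the sensing genes, Insig1 (ENSMUSG00000045294, chromosome 5, 28071363 to 28078662, plus strand), itself a classic SREBP target, was at 12.8 to 22.2 CPM in sham (median 19.0) and 9.29 to 19.3 CPM in the IZ (median 15.2). Only IZ replicates 5 and 8 lay below every sham library. Its log2 fold change of -0.25 (95% CI -0.58 to 0.07; edgeR adjusted p = 0.15) was not called, but passed when IZ replicates 1, 2, 3 and 7 were left out together (-0.47, adjusted p = 0.0337) and when all libraries were thinned to the smallest total (-0.55, adjusted p = 0.0323).

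Srebf1 (ENSMUSG00000020538, chromosome 11, 60199089 to 60222581, minus strand), whose product favours fatty acid genes, was at 11.7 to 29.5 CPM in sham (median 16.4) and 14.2 to 22.7 CPM in the IZ (median 19.6). The IZ range lay inside the sham range. The log2 fold change was 0.11 (95% CI -0.23 to 0.46; edgeR adjusted p = 0.55). Srebf1 overlaps Rai1 on the opposite strand, and whether counting used strand is not given in the sources used here. Rai1 held 767 counts over the 17 libraries against 878 for Srebf1.

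Srebf2 (ENSMUSG00000022463, chromosome 15, 82147181 to 82205379, plus strand), whose product favours cholesterol genes, was the borderline member. It was at 13.5 to 32.8 CPM in sham (median 17.5) and 12.0 to 34.2 CPM in the IZ (median 25.3). The groups overlapped through single libraries at both ends: sham replicate 1 was the highest of its group and IZ replicate 1 the lowest of all 17. The log2 fold change of 0.42 (95% CI 0.02 to 0.82) gave an adjusted p of 0.0548 by edgeR. It passed without sham replicate 1 (0.59, adjusted p = 0.00591), without IZ replicate 1 (0.48, 0.0116), without IZ replicate 4 (0.46, 0.0483), without IZ replicate 9 (0.49, 0.0338), and under upper quartile scaling (0.54, 0.0172), without a filter (0.48, 0.0303), with a minimum mean of 50 counts (0.45, 0.0407) and with total counts as library sizes (1.52, 7.65e-07). In all 8 of 28 alternatives called it, and DESeq2, at an adjusted p of 0.0728, did not.

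The synthesis pathway, of which Hmgcs1 and Sqle are steps, held genes called in both directions. Of its 20 genes 17 were tested, 7 were called higher, 6 lower and 4 not called (76.5% called, near the 69.5% of all genes tested), with a median log2 fold change of 0.19. Counts of the list summed to 239 ± 15.5 CPM in sham and 256 ± 25.0 CPM in the IZ, so opposite changes lay beneath a similar total. Both enzymes that lead into squalene fell, Fdps by a factor of 3.86 (edgeR adjusted p = 3.02e-07) and Fdft1, squalene synthase, by a factor of 3.01 (adjusted p = 5.75e-06). With total counts as library sizes the Fdft1 log2 fold change of -1.59 became -0.51 and was not called (edgeR adjusted p = 0.0633). Fdps was low in all 9 IZ libraries, but the 3' end of its transcript is 99.1% identical to Gm3571, which held 200 counts against 271, so its count is uncertain. Fdft1 overlaps Ctsb on the opposite strand, which held 101194 counts against 489 for Fdft1.

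Downstream of squalene, where Sqle acts, most called genes rose. The demethylation enzymes Cyp51 (log2 fold change 0.74), Msmo1 (1.11) and Nsdhl (0.64) were called higher, as was the sterol isomerase Ebp (2.02-fold). Cyp51 overlaps Akap9 on the opposite strand, which held 880 counts against 613 for Cyp51. The Cyp51 call was lost in thinned libraries (edgeR adjusted p = 0.0562), and the Nsdhl call with the replicate block (0.0556) and without sham replicate 3, 5, 6, 7 or 8 or IZ replicate 1 or 6 (lowest log2 fold change 0.48). Hsd17b7, which works beside Msmo1 and Nsdhl, went the other way at -1.81, and so did Sc5d at -0.65. In thinned libraries Sc5d was at -0.18 and not called (edgeR adjusted p = 0.696), and with total counts as library sizes it turned to 0.42. Acat2 (-0.33) and Pmvk (-0.39), early enzymes, were called lower but turned to 0.76 and 0.70 under that same scaling. Both calls were also lost with upper quartile scaling, without a filter and in thinned libraries, that of Pmvk with DESeq2 (adjusted p = 0.0748) and the replicate block (0.092), and in leave-one-out fits that of Acat2 without IZ replicate 2, 6, 7 or 8 and that of Pmvk without sham replicate 2, 3, 4, 7 or 8 or IZ replicate 1, 2, 4, 5, 6, 8 or 9. Mvk (0.19), Mvd (0.44) and Dhcr7 (0.09) were not called, while Idi1, Lss and Tm7sf2 were too low to test.

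Of the 7 sensing genes, 1 was higher, 1 lower and 5 not called (28.6% called, where 69.5% of all genes tested were), with a median of 0.12. Insig2, the second Insig protein, fell from 42.0 ± 5.65 to 17.2 ± 2.25 CPM, a 2.40-fold drop (adjusted p = 1.57e-09 by edgeR). All 9 IZ libraries lay below every sham library, as in 2027 of the 12301 genes tested. The log2 fold change was -1.26 in Insig2 (-0.19 and not called with total counts as library sizes) and -0.25 in Insig1, a difference that was not tested. Mbtps1 was called slightly higher (0.36, adjusted p = 0.0237), a call lost without sham replicate 1, 4 or 8. Scap (0.26) and Mbtps2 (0.12, but -0.043 without IZ replicates 2, 3 and 7) were not called.

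**Figure D2:**
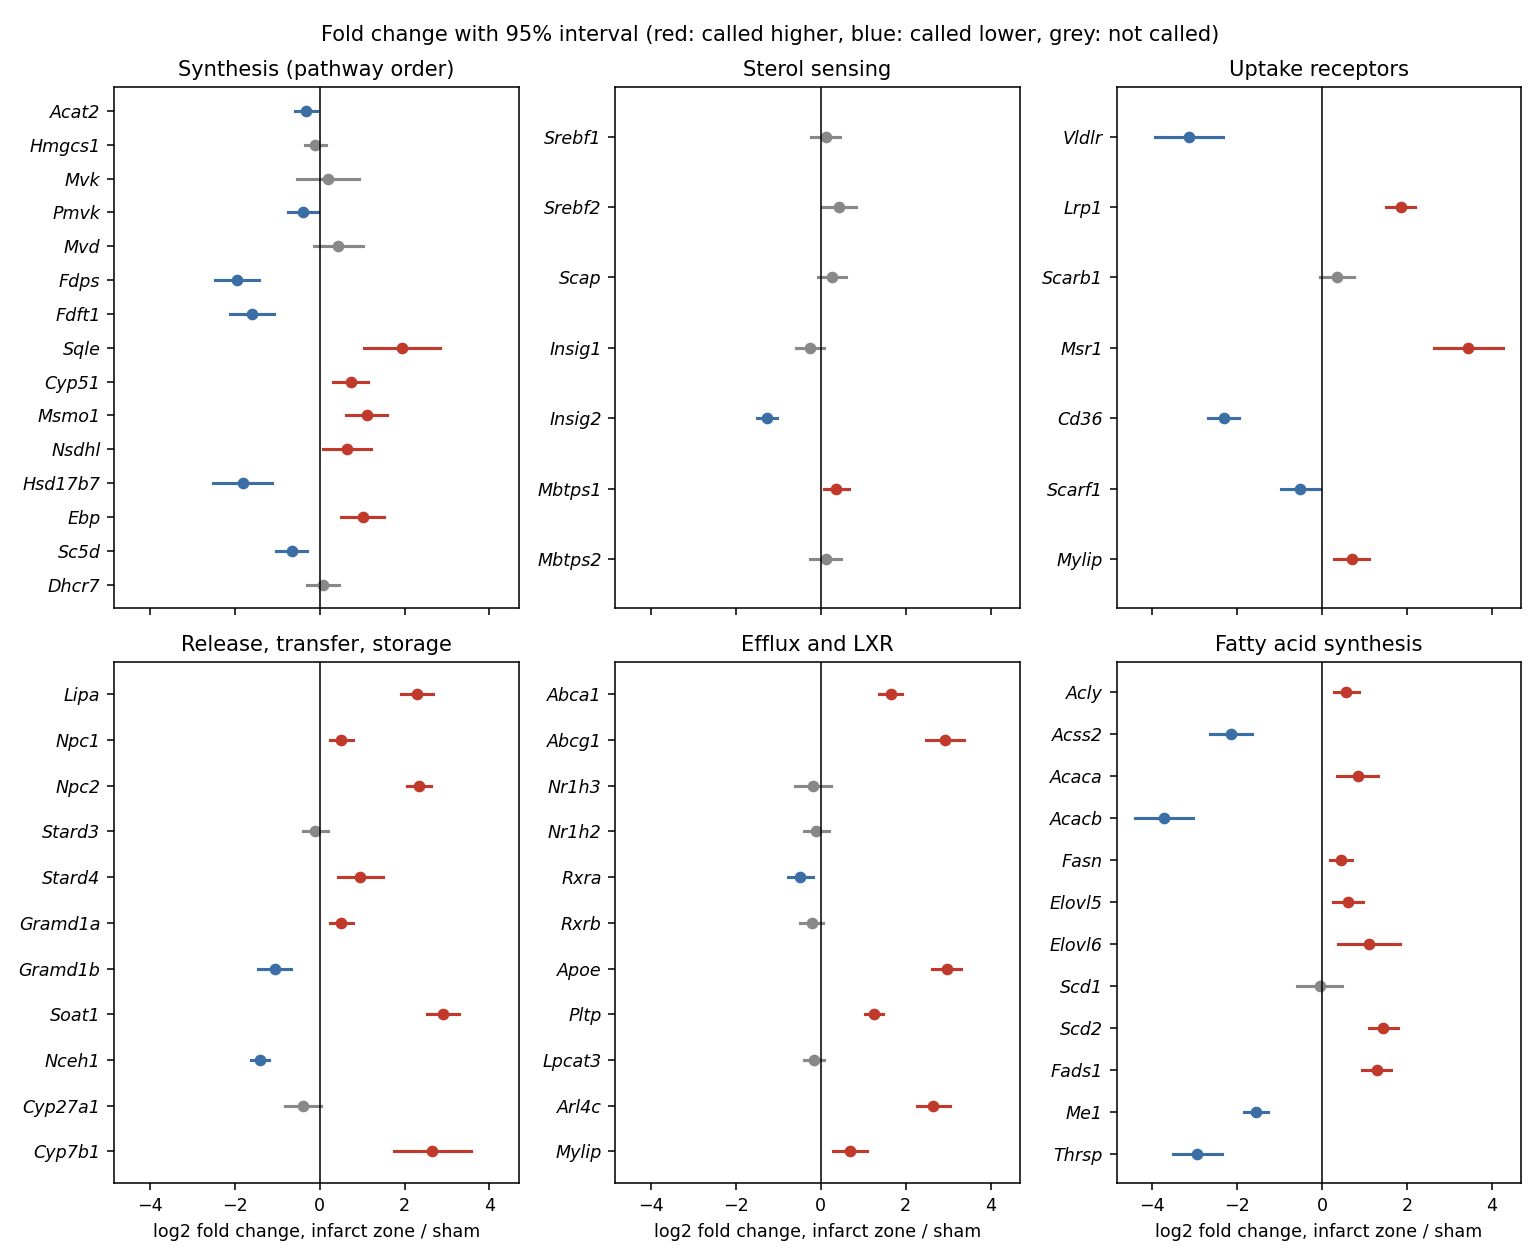
Log2 fold change (x axis, IZ over sham) with its 95% interval for tested genes of 6 lists, red for called higher, blue for called lower and grey for not called. Synthesis genes spread to both sides of 0, from Fdps at -1.95 to Sqle at 1.94, while Abcg1 and Apoe lie near 3 in the efflux panel; Sc5d, Acat2, Pmvk, Gramd1b, Rxra and Rxrb move to the right of 0 with total counts as library sizes.

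Of 10 uptake receptor genes 8 were tested, 4 were higher, 3 lower and 1 not called (median 0.52). Over all genes tested 69.5% were called, 36.3% higher and 33.1% lower. The macrophage scavenger receptor Msr1 was higher at a log2 fold change of 3.44 and the large endocytic receptor Lrp1 at 1.85. Msr1 had 2 to 12 counts in sham libraries and 13 to 473 in the IZ, and passes the low-count filter through the IZ libraries. The VLDL receptor Vldlr (-3.14) and the fatty acid transporter Cd36 (-2.32), both rich in working myocardium, were lower. The directions of these 4 genes were the same under every scaling tried.

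Of the genes of lysosomal release, transfer and storage, 7 of 11 tested were higher, 2 lower and 2 not called (14 listed, median 0.52), where 36.3% of all genes tested were higher and 33.1% lower. In thinned libraries 4 were higher. Soat1, which esterifies cholesterol for storage in droplets, rose 7.49-fold (edgeR adjusted p = 7.23e-12). Every IZ library was above every sham library for Soat1, as in 16.6% of all genes tested. Cyp7b1, which hydroxylates oxysterols, was higher at 2.65, from at most 5 counts in any sham library. Nceh1, which frees stored cholesterol, was lower at -1.39, as was the sterol transfer protein Gramd1b at -1.06 (0.021 with total counts as library sizes). Gramd1b overlaps Gm5055 on the opposite strand, which held 1101 counts against 775 for Gramd1b.

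The efflux and LXR list, which holds Abca1, Abcg1 and Nr1h3, had 6 of 11 tested genes higher, 1 lower and 4 not called (12 listed, median 0.69). The share called was 63.6%, near the 69.5% of all genes tested. Apoe, the apolipoprotein that accepts cholesterol and an LXR target, had the highest fold change of the list at 2.96 (edgeR adjusted p = 9.20e-13), from 468 ± 27.0 to 3647 ± 584 CPM. Abcg1 was next. At the other end were the RXR partners of LXR, Rxra at -0.48 (called lower) and Rxrb at -0.22 (not called), which turned to 0.61 and 0.86 with total counts as library sizes.

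Fatty acid synthesis genes, many of them Srebf1 targets, were called in 11 of 12 tested (14 listed), 7 higher and 4 lower, with a median of 0.51, where 69.5% of all genes tested were called. The desaturases Scd2 (1.44) and Fads1 (1.28) had the highest fold changes. Acacb, the acetyl-CoA carboxylase of muscle that curbs fatty acid burning (-3.72), and Thrsp, a lipogenic factor (-2.94), had the lowest. Summed over the list, levels ran from 355 to 448 CPM in sham and from 237 to 326 CPM in the IZ, with no overlap. Acacb alone went from a mean of 132 CPM in sham to 10.3 CPM in the IZ. The fall of the sum thus does not describe the 7 genes called higher.

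In plots against the summed macrophage markers, the 2 groups formed separate clusters, so relations were computed within a group. Across the 8 sham or 9 IZ libraries, 56 pairs of members were correlated on log2 CPM with exact two-sided permutation tests, and 0 passed after Benjamini-Hochberg adjustment. Unadjusted, 1 pair in sham and 3 in the IZ had a p under 0.05. In the IZ the closest pair was Sqle and Srebf2 (Pearson r = 0.85, exact p = 0.00742, adjusted 0.257; Spearman rho = 0.73, exact p = 0.0311), and r was 0.57 without the 2 libraries farthest from the median of Sqle. In sham it was Srebf1 and Nr1h3, which ran opposite to each other (r = -0.80, exact p = 0.0138, adjusted 0.257; rho = -0.81, exact p = 0.0218; r = -0.81 without 2 libraries). Against the macrophage and cardiomyocyte sums, 32 relations were computed and 0 passed the adjustment, with 5 under 0.05 unadjusted. Abca1 and the cardiomyocyte sum in the IZ had the highest absolute r of these (r = -0.82, exact p = 0.0127, adjusted 0.258; rho = -0.70, exact p = 0.0433), falling to -0.58 without 2 libraries.

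**Figure D3:**
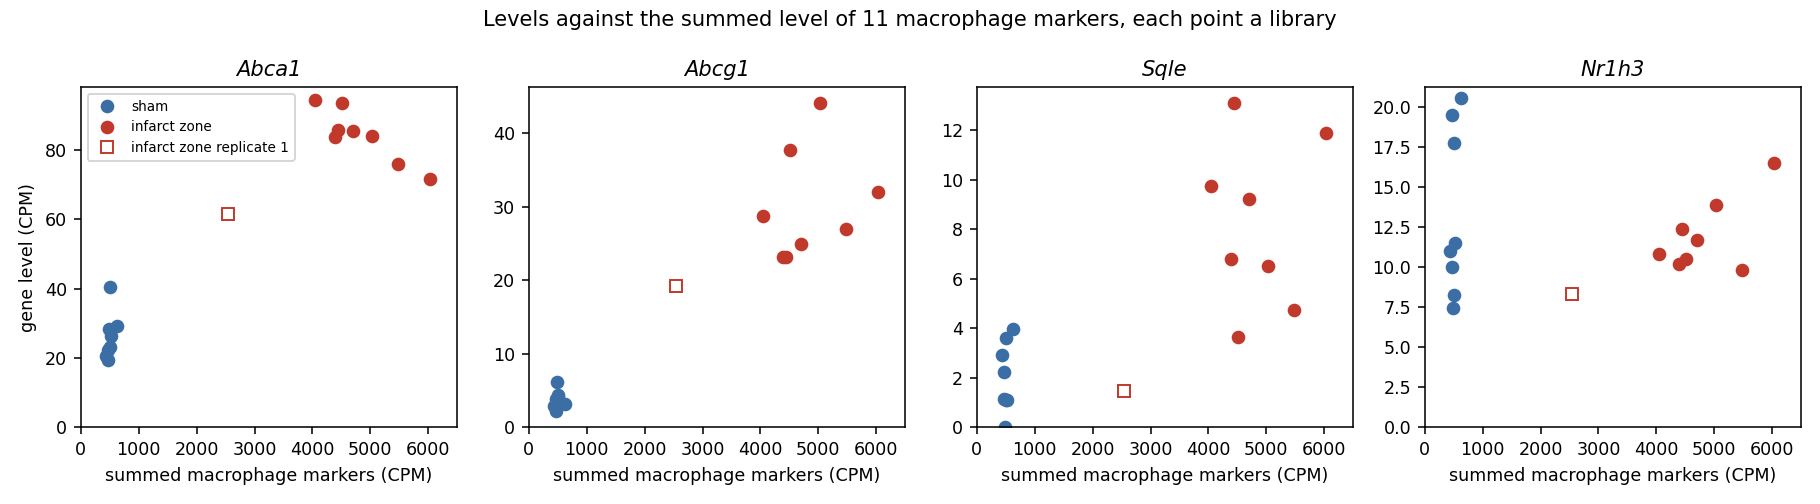
Level in CPM (y axis) of Abca1, Abcg1, Sqle and Nr1h3 against the summed CPM of 11 macrophage markers (x axis), one point a library, blue for sham, red for IZ and an open square for IZ replicate 1. Sham libraries lie at 430 to 617 CPM of markers and IZ libraries at 2534 to 6035, and IZ replicate 1, lowest in markers, is also the lowest IZ library for Abca1 (61.6 CPM), Abcg1 (19.2), Sqle (1.45) and Nr1h3 (8.33).

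IZ replicate 1 moved with several results. It was the lowest IZ library for Abca1, Abcg1, Sqle, Srebf2 and Nr1h3, and the highest for Hmgcs1. Without it the log2 fold changes were 1.65 for Abca1, 2.95 for Abcg1 and 2.04 for Sqle, close to the values with it. Without IZ replicates 2, 3 and 7, which held the most adipocyte marker counts, they were 1.61 for Abca1 and 3.04 for Abcg1, and Sqle was not tested. The calls of the 2 pumps thus did not rest on the libraries that stood apart.

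With group means removed, the genes whose log2 CPM followed each member most closely over the 17 libraries were picked by the highest r among the 9335 or 9336 other genes whose mean was 10 CPM or more. High values arise by picking, so they are a description. Abca1 ran closest to Snrnp70, a splicing factor (Pearson r = 0.86), and Ddx6, an RNA helicase (0.84). Abcg1 ran closest to Gsdmd, gasdermin D (0.75), and the RNA editor Adar (0.73). Nr1h3 ran closest to Marc2 (0.85) and the receptor Gpr176 (0.82). For Sqle they were Sec24d, a coat protein of transport vesicles (0.86), and Plxna1, a semaphorin receptor (0.81). For Hmgcs1 they were the kinase Plk2 (0.80) and the nuclear pore gene Nup85 (0.79). Insig1 had Leo1 (0.87) and the GTPase Rras2 (0.86), Srebf1 had the chromatin remodeller Smarca5 (0.80), and Srebf2 had Prkaa1, a subunit of AMP kinase (0.86). None of these genes belongs to the pathway lists.

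Scaling set the sign of several small changes. TMM factors ran from 0.613 to 1.54, and total counts as library sizes moved the median log2 fold change of all genes from 0.05 to 1.14. On that scale all 8 members were called higher, Hmgcs1 at 0.98, Insig1 at 0.83 and Nr1h3 at 0.91 included, and 85.8% of calls over all genes were higher against 52.3% on TMM scaling. This scaling moves every gene by nearly the same amount. Relative to the shifted median Abcg1 stood 2.88 above it, Sqle 1.90, Abca1 1.59, Srebf2 0.38 and Srebf1 0.070, while Hmgcs1 (-0.16), Nr1h3 (-0.23) and Insig1 (-0.31) stood below it, an order that a common shift leaves as it was. Abca1 and Abcg1 were called higher in 28 of 28 alternatives. Sqle was tested in 15 of them.

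**Figure D4:**
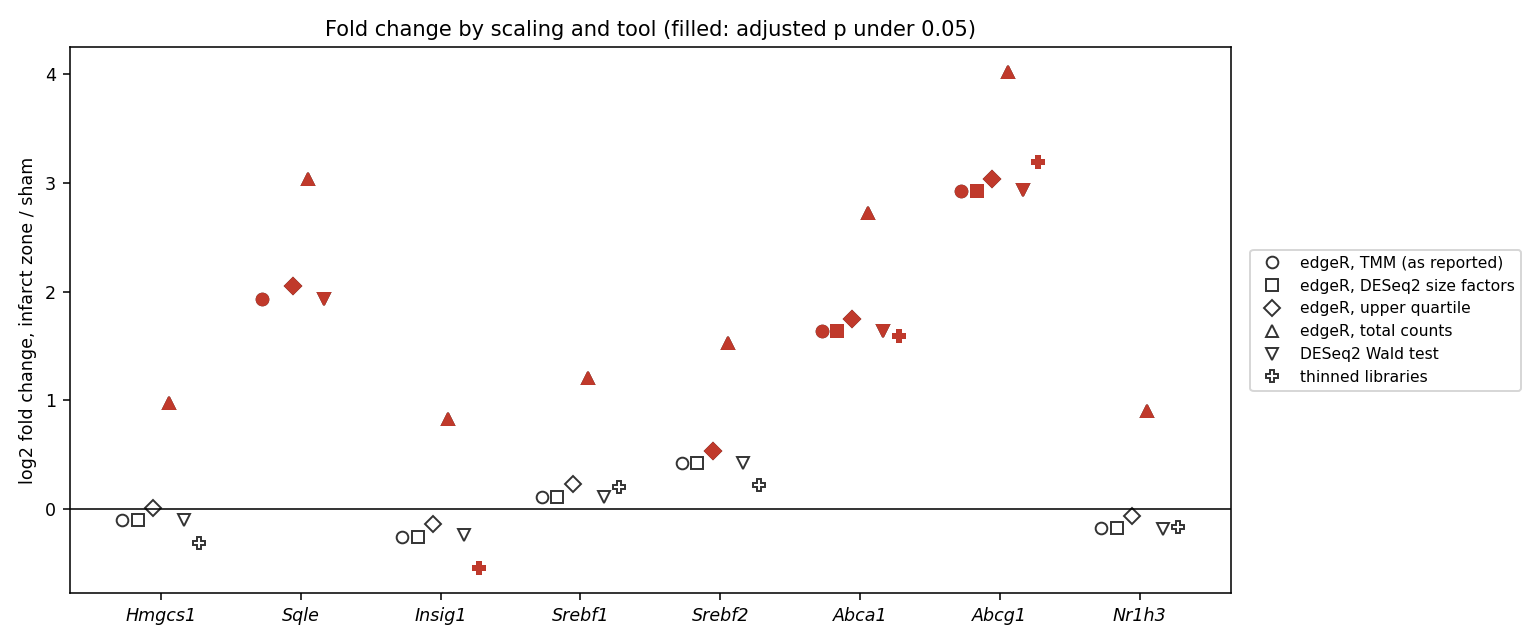
Log2 fold change (y axis, IZ over sham) of the 8 genes under 6 scalings or tools, marker shape giving the setting and fill an adjusted p under 0.05 (Sqle did not pass the filter with DESeq2 size factors in edgeR or in thinned libraries). Total counts lift every gene, turning Hmgcs1, Insig1 and Nr1h3 positive, while Abca1 and Abcg1 are filled in each setting.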

How the data were processed

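Total RNA from sham left ventricle (8 libraries) and infarct zone (9 libraries) was read by 3' MACE-seq. The authors trimmed reads with Cutadapt, mapped them to mm10 (Bowtie2 is named in the submitters' processing notes) and deposited raw HTSeq counts per gene; the annotation release is not given in the sources used here. Molecular barcodes were used to remove PCR duplicates. Of 31647 features 31521 matched gene names, positions being from GENCODE (GRCm38), and 35 merged features were left as they are. The deposited counts were tested in R 4.3.3 with edgeR 4.0.16 (quasi-likelihood F-test, two-sided, TMM scaling, filterByExpr with a minimum count of 10, Benjamini-Hochberg over 12301 genes, threshold 0.05). Standard errors were derived from the F statistic, and 95% intervals from its degrees of freedom. log2 CPM used a prior count of 1. Relations used exact permutation tests (SciPy 1.17.1). Alternatives were other scalings, DESeq2 1.42.0, other filters, thinning, a replicate block and leaving out libraries. Each library is a separate mouse per the study's methods. Sham libraries held 1820809 to 4257919 counts and IZ libraries 1237675 to 4738307. Intervals on folds give the uncertainty of the group fold, estimated from variation between mice, and not the range of single mice. The test was also run on simulated counts in which few genes changed, equally in both directions. That run cannot check the scaling used here, since 69.5% of all genes tested were called in these data. No 2 libraries were alike within sampling noise (chi-square per degree of freedom at least 2.41). Besides the members, named genes were all synthesis and sensing genes, the 2 highest and 2 lowest of each other pathway list, the highest and lowest of each marker list, and the 2 nearest genes of each member; Ch25h was added after its values were seen. Some genes under this rule are not reported here. Members and lists were chosen with earlier results of these data known. Similar transcript ends were found with BLAST 2.17.0.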

Additional observations from a re-analysis of the deposited data

Results flagged for a closer look

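Of 20 sets of values (each of the 8 genes and the macrophage and cardiomyocyte marker sums, in each group), 4 had a library apart from its group by Dixon's ratio of gap to range. Chance alone marks about 1 in 20 such sets. Sqle in sham replicate 2, at 0 counts, had a ratio of 0.560 (the 95% critical value depends on the number of libraries), although the gap lies between 0 and 2 counts. Srebf2 in sham replicate 1, the highest sham value at 32.8 CPM, had a ratio of 0.623, and the Srebf2 call passed the threshold without it. In IZ replicate 1 the macrophage marker sum had a ratio of 0.539 and the cardiomyocyte marker sum a ratio of 0.615. Abca1 and Abcg1 had no library apart in either group.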

How the results depend on the processing

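Of 209 alternative values for the 8 genes, 194 kept their direction and side of the threshold, 11 passed it newly and 4 changed sign. Of 1140 for the other named genes, 1067 kept both, 45 lost the threshold, 8 passed it and 20 changed sign. The cause was not tested for any of them unless stated. With total counts as library sizes, which move the median of all genes to 1.14, the log2 fold change turned to 0.98 in Hmgcs1, 0.83 in Insig1, 0.91 in Nr1h3, 0.76 in Acat2, 0.70 in Pmvk, 0.42 in Sc5d, 0.021 in Gramd1b, 0.61 in Rxra, 0.86 in Rxrb and 1.04 in Emcn. Counts called higher then became 8 members, 14 synthesis, 6 sensing and 11 efflux genes, and counts called lower 2 synthesis, 0 sensing, 1 storage and 0 efflux genes. Upper quartile scaling turned Hmgcs1 to 0.010 and Emcn to 0.073 and gave 3 sensing genes higher. Emcn also turned to 0.020 without a filter, 0.014 in thinned libraries and 0.015 with the replicate block. Without a filter 2 sensing genes were higher.

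A minimum mean of 50 counts, which tests 6734 genes and calls 5239 (against 12301 and 8544), left 1 synthesis gene higher and 1 lower, 2 sensing genes higher, 2 uptake genes higher, 1 storage gene lower and 2 fatty acid genes lower. Thinned libraries left 3 synthesis genes higher and 2 lower, 0 sensing genes higher and 2 lower, 4 storage genes higher, 0 efflux genes lower, and 1 member (Insig1) lower. Without IZ replicates 1, 2, 3 and 7, chosen after seeing the data, 1 member (Insig1) and 2 sensing genes were lower, Mbtps2 turned to -0.10 and Dcn to -0.020. Without IZ replicates 2, 3 and 7, also chosen after seeing the data, Mbtps2 turned to -0.043.

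Leaving out 1 library at a time, members called higher ranged from 2 to 4 and called lower stayed at 0. Sensing genes higher ranged from 0 (without sham replicate 4 or 8) to 2 (without sham replicate 6 or IZ replicate 1, 4 or 9), synthesis genes from 5 to 7 higher and 4 to 6 lower. Dcn ranged from -0.051 (without IZ replicate 1) to 0.11 and Emcn from -0.11 to 0.051, both around 0. Same-numbered sham and IZ libraries did not deviate together (r from -0.22 to 0.13, over 0.1 in 1 of 8 pairs, and 1 of 8 closest to its own number), so the numbers share only a number. With the replicate block, which leaves out IZ replicate 9, 7883 of 12033 genes were called, Abca1 (1.69) and Abcg1 (2.92) remained higher, Sqle was not tested and the other members were not called. Depth limits Sqle most, with at most 7 counts in any sham library.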

Other observations

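Ch25h, which makes the oxysterol 25-hydroxycholesterol that LXR senses, was left untested by the filter and was picked here after its values were seen. It had 0 to 4 counts in the sham libraries and 5 to 64 in the IZ libraries. In CPM, sham libraries ran from 0 through a median of 0.538 to 2.38, and IZ libraries from 2.70 through a median of 6.89 to 10.5, without overlap. Among all genes tested, 16.6% had every IZ library above every sham library. No test was made of it.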
